A study of Arabidopsis thaliana with 18 samples.

Results

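The comparison set roots of the atm-2 rab8d-2 double mutant of Arabidopsis thaliana against roots of wild type (WT, Col), and asked which RNA changes of a plastid defect are present when the kinase ATM is reduced as well. It rests on 6 of the 18 libraries of the series, the 3 titled as atm-2 rab8d-2 and the 3 titled as WT, and on every gene of the deposited table. Poly(A) RNA had been sequenced from roots of untreated 4-day-old seedlings raised with 16 h of light and 8 h of dark on medium with 1% sucrose, in 6 genotypes of 3 libraries each. The remaining genotypes were rab8d-2 and its combinations with sog1-1, nac044-1 and nac085-1, so that every mutant group carried rab8d-2. Values of the rab8d-2 single mutant are set beside those of the double mutant, and each gene was also tested between these 2 genotypes. No group carried atm-2 without rab8d-2, and a change caused by atm-2 alone cannot be told apart from one that needs both mutations. The comparisons of rab8d-2 and of atm-2 rab8d-2 with WT share the WT libraries, so their values stand side by side and no overlap between them was computed.

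RAB8D encodes the plastid elongation factor EF-Tu, which brings charged transfer RNAs to the plastid ribosome. ATM is the kinase that detects DNA double-strand breaks through the MRE11, RAD50 and NBS1 complex, while its relative ATR responds to stalled replication. In plants both kinases act on the transcription factor SOG1, which switches on genes of DNA repair, the NAC factors NAC044 and NAC085, and inhibitors of cyclin-dependent kinases, and so delays the cell cycle in the root meristem.

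The labels were first checked against the mutated genes. ATM (AT3G48190) had 43.9, 41.5 and 44.5 normalised counts (CPM, counts relative to library size) in the 3 WT libraries, 52.4, 51.5 and 57.1 in rab8d-2 and 5.79, 5.45 and 5.29 in atm-2 rab8d-2. The double mutant thus held 7.85-fold less ATM RNA than WT (log2 fold change -2.97 ± 0.07, SE, n = 3 per genotype, edgeR adjusted p = 2.52e-36), with no overlap between the libraries. RAB8D (AT4G20360, named RABE1b in the reference annotation) had 93.1, 89.7 and 87.9 CPM in WT, 11.6, 11.7 and 10.9 in rab8d-2 and 17.2, 18.1 and 17.9 in atm-2 rab8d-2. Its RNA was 5.09-fold lower in the double mutant than in WT (-2.35 ± 0.05, adjusted p = 1.22e-36). It was 0.63 ± 0.08 higher on the log2 scale than in rab8d-2 (adjusted p = 1.4e-09), so it was reduced less than in the single mutant. Its means were 13.2, 14.6 and 15.4 CPM in the sog1-1, nac044-1 and nac085-1 double mutants. The part of this difference in the plastid values below was not tested. For the libraries titled rab8d-2 the genotype field reads wild type, and the low RAB8D RNA goes with the titles. Root tissue markers were abundant, with summed levels of 697 to 729 CPM for endodermis and 538 to 543 CPM for xylem in atm-2 rab8d-2. Of 11 shoot markers 10 are in the table and 4 passed the filter on low counts, with a summed level of the list of 7.10 to 7.38 CPM in WT, 15.2 to 17.57 in rab8d-2 and 8.68 to 10.0 in atm-2 rab8d-2.

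Library totals lay between 20103600 and 20471200 estimated counts over the series, so depth was nearly equal. In WT 4.24% to 4.26% of a library came from its 20 most abundant genes, and in atm-2 rab8d-2 5.21% to 5.29%. Of 25537 genes, 19981 passed the filter. The common dispersion was 0.000566, a biological coefficient of variation of 2.38%. The labels call the libraries biological replicates and do not say how separately the plants were grown, so the p-values measure the spread between these libraries, and with so small a spread minor shifts pass the threshold.

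A gene counts as changed at an adjusted p under 0.05 (edgeR quasi-likelihood test, Benjamini-Hochberg over all 19981 genes). Between atm-2 rab8d-2 and WT, 7007 genes were higher (35.1% of those tested) and 6694 lower (33.5%), together 68.6%. Of these, 1091 were at least 2-fold higher and 1495 at least 2-fold lower, and 402 and 447 at least 4-fold. The median log2 fold change of all genes was 0.01. Between atm-2 rab8d-2 and rab8d-2, 31.7% of genes were higher and 29.9% lower in the double mutant, and between rab8d-2 and WT 31.7% were higher and 32.9% lower. Counts of list members below are to be read against these shares. Fold changes given after a gene name are log2 values of atm-2 rab8d-2 against WT with the SE unless stated otherwise.

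**Figure D1:**
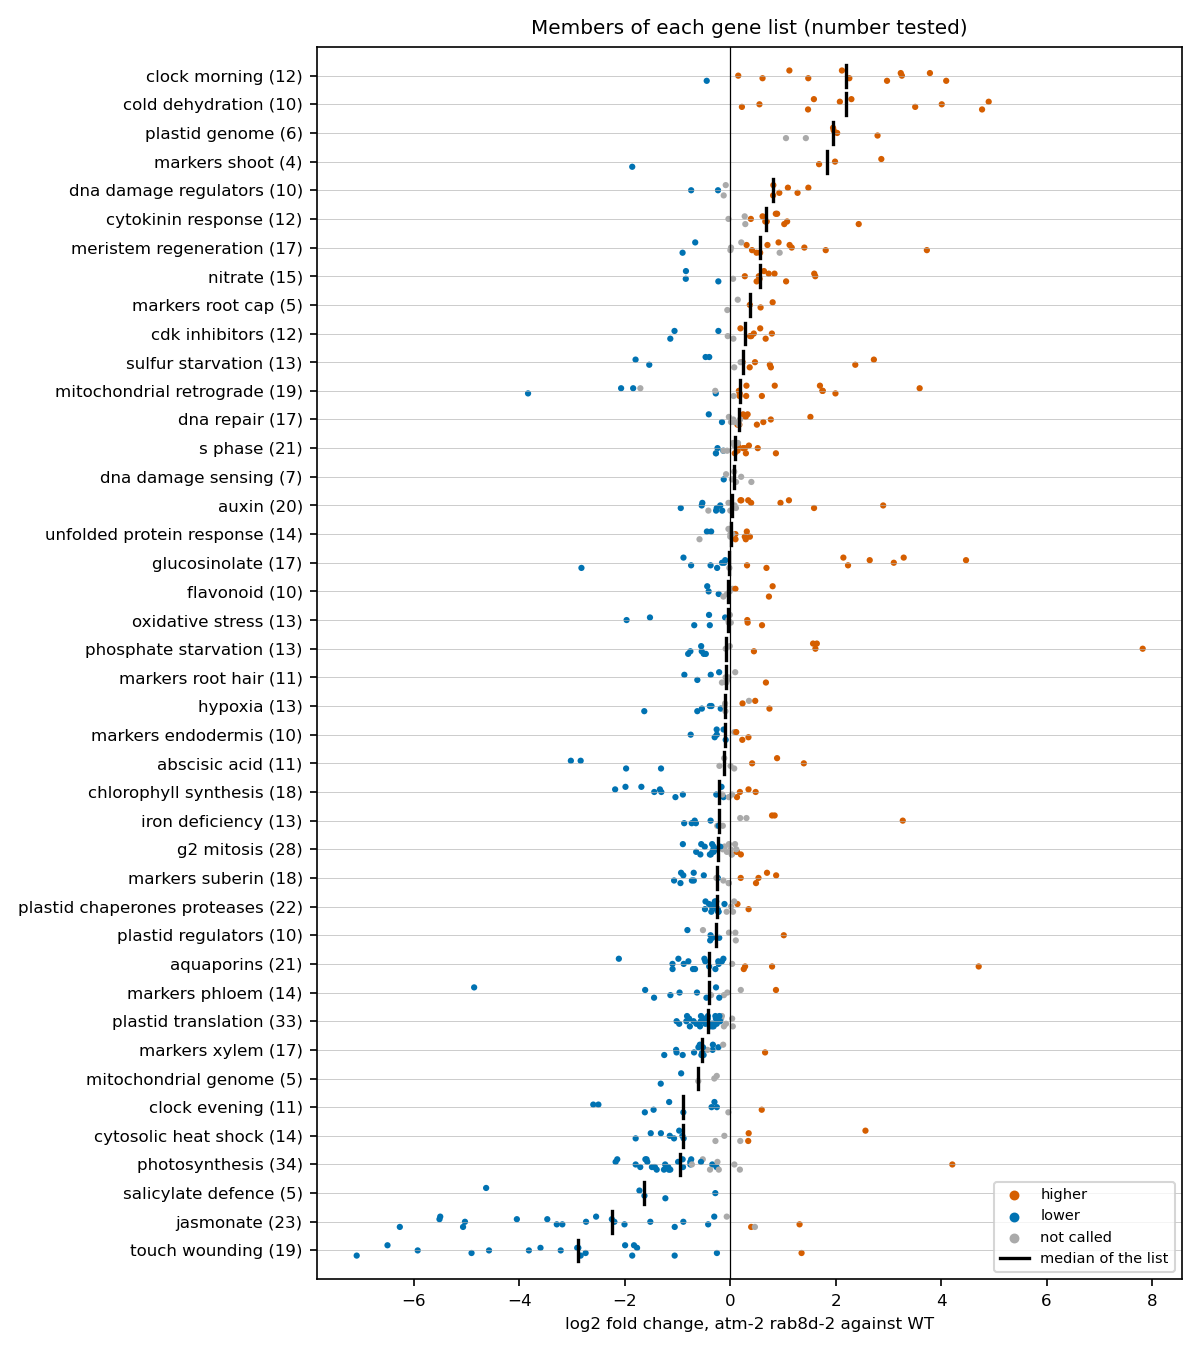
Log2 fold change of atm-2 rab8d-2 against WT (x axis) for the tested members of 42 gene lists (y axis, number tested in brackets), with 1 point per gene coloured by its call and a black bar at the median of the list. The medians run from -2.88 for touch and wounding genes to 2.19 for morning clock genes and for cold and dehydration genes. RBCS3B and NRT2.1 had no counts in WT and are not drawn.

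The first question was what remained of the DNA damage response. A core of genes, with NAC044, CYCB1;1, GMI1, TSO2 and PARP2, was still above WT in the double mutant, while BRCA1, RAD17 and KRP6, which were high in rab8d-2, lay near or below WT. Of 10 regulators and cell cycle genes of the response, 6 were higher and 2 lower than WT (median 0.81), and in rab8d-2 7 were higher and 1 lower (median 0.85). The 17 genes of repair and nucleotide supply had 9 higher and 2 lower (median 0.17), against 12 and 0 in rab8d-2 (median 0.42). Compared directly, 8 of these 17 were lower in atm-2 rab8d-2 than in rab8d-2 and 3 higher.

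NAC044, a NAC transcription factor activated by SOG1, had 5.15, 5.89 and 4.47 CPM in WT, 19.7, 18.8 and 19.8 in rab8d-2 and 14.5, 14.5 and 14.3 in atm-2 rab8d-2. The double mutant lay between the other genotypes without overlap, 1.48 ± 0.09 above WT (adjusted p = 2.38e-20) and -0.43 ± 0.06 against rab8d-2 (adjusted p = 9.4e-08). Its relative NAC085 was scarce, with 0.750, 0.453 and 0.702 CPM in WT, 1.64, 2.18 and 1.39 in rab8d-2 and 1.61, 1.02 and 1.46 in the double mutant. NAC085 rose by 1.09 ± 0.31 (adjusted p = 0.00169), and its difference from rab8d-2 did not pass the test (-0.35 ± 0.24, adjusted p = 0.213), with overlapping libraries. NAC103, a NAC factor that also acts in the stress response of the endoplasmic reticulum, had 4.65, 4.98 and 4.92 CPM in WT, 22.4, 22.04 and 21.2 in rab8d-2 and 7.88, 8.67 and 9.07 in the double mutant. It stayed above WT by 0.82 ± 0.10 but was well below rab8d-2 (-1.36 ± 0.07, adjusted p = 7.43e-22), the largest step down among the 34 DNA damage genes tested.

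The mitotic cyclin CYCB1;1, which plants also induce on DNA breaks, had 8.35, 8.25 and 10.4 CPM in WT, 16.9, 17.02 and 17.45 in rab8d-2 and 15.7, 18.3 and 17.5 in the double mutant. It rose by 0.93 ± 0.08 over WT (adjusted p = 3.74e-14), and its difference from rab8d-2 was 0.00 ± 0.07. SMR7, an inhibitor of cyclin-dependent kinases, had 2.90, 2.37 and 2.21 CPM in WT, 4.09, 3.09 and 2.78 in rab8d-2 and 4.33, 3.95 and 4.85 in the double mutant, where it was 0.81 ± 0.15 above WT (adjusted p = 6.78e-06). Its rise of 0.40 ± 0.14 over rab8d-2 (adjusted p = 0.0128) did not pass the test without replicate 2 or 3 of rab8d-2 (adjusted p = 0.054 and 0.107) or replicate 3 of atm-2 rab8d-2 (adjusted p = 0.0914). SMR5, a further inhibitor of this family, stayed under 1.1 CPM in these libraries and rose by 1.28 ± 0.45 (adjusted p = 0.0118). SMR4 went the other way (-0.74 ± 0.17, adjusted p = 0.000105). KRP6, an inhibitor of the KRP family, lay just below WT, with 15.3, 15.7 and 16.2 CPM in WT, 28.5, 27.8 and 24.5 in rab8d-2 and 14.99, 14.5 and 14.9 in the double mutant (-0.09 ± 0.07, adjusted p = 0.297; -0.86 ± 0.07 against rab8d-2). SOG1 RNA was -0.23 ± 0.05 against WT, a value close to the -0.28 of rab8d-2, and the checkpoint kinase WEE1 did not pass the test (-0.13 ± 0.10).

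GMI1, a protein related to SMC proteins and induced by DNA breaks, had 17.9, 17.8 and 17.8 CPM in WT, 45.3, 45.6 and 45.4 in rab8d-2 and 50.8, 48.5 and 54.1 in atm-2 rab8d-2. It rose by 1.52 ± 0.06 over WT (adjusted p = 4.2e-28) and was 0.17 ± 0.05 above the single mutant (adjusted p = 0.00167). TSO2, the small subunit of ribonucleotide reductase that supplies deoxynucleotides, had 70.9, 69.9 and 73.8 CPM in WT, 110.1, 109.6 and 105 in rab8d-2 and 109, 114 and 108 in the double mutant. The mutants overlapped and both lay above WT (0.63 ± 0.04, adjusted p = 8.63e-21). The poly(ADP-ribose) polymerase PARP2 kept 0.77 ± 0.06 over WT, below the 1.09 of rab8d-2 (-0.33 ± 0.05 between them, adjusted p = 4.23e-07). XRI1, an X-ray induced gene needed in meiosis, kept 0.50 ± 0.06, and the cohesin SYN2 0.33 ± 0.06.

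BRCA1, a ubiquitin ligase of homologous recombination, fell below WT, with 17.995, 20.3 and 20.02 CPM in WT, 28.8, 27.2 and 26.4 in rab8d-2 and 14.2, 14.1 and 15.6 in the double mutant. The 3 genotypes did not overlap (-0.41 ± 0.06 against WT, adjusted p = 3.04e-07; -0.91 ± 0.06 against rab8d-2, adjusted p = 2.77e-18). RAD17, the loader of the checkpoint clamp, had 13.6, 12.99 and 13.3 CPM in WT, 23.49, 22.6 and 22.8 in rab8d-2 and 13.8, 13.8 and 13.1 in the double mutant (0.03 ± 0.07 against WT, -0.76 ± 0.06 against rab8d-2). The meiotic recombination gene MND1 (0.16 ± 0.13) did not pass the test against WT although rab8d-2 had 0.73. TIL1, the catalytic subunit of DNA polymerase epsilon, was at -0.16 ± 0.05 against WT and 0.31 in rab8d-2, and RAD50 at -0.13 ± 0.04 and 0.24. Both were called lower than WT, but TIL1 not without replicate 3 of WT (adjusted p = 0.0867) and RAD50 not without replicate 1 of WT (adjusted p = 0.103).

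Other sensors did not pass the test, among them ATR (0.07 ± 0.07), MRE11 (0.11 ± 0.07), NBS1 (0.21 ± 0.11) and RAD9 (-0.08 ± 0.15), although NBS1 was called higher without replicate 2 of WT (adjusted p = 0.0235) or replicate 2 of atm-2 rab8d-2 (adjusted p = 0.0385). The end-joining genes moved little, with KU80 at 0.24 ± 0.05 (called) and KU70 (0.06 ± 0.04), LIG4 (0.01 ± 0.05) and AT4G32700, annotated as a MUS308-like polymerase (0.08 ± 0.06), not called. PARP1 (0.13 ± 0.06), BARD1 (0.17 ± 0.07) and RPA1E (0.29 ± 0.11) were called higher by small margins, and AGO2 was not called (-0.03 ± 0.06). PARP1 lost its call without replicate 2 of WT or replicate 1 or 2 of atm-2 rab8d-2 (adjusted p up to 0.249). BARD1 lost it without replicate 1 or 2 of WT or replicate 2 of atm-2 rab8d-2 (up to 0.106), and RPA1E without replicate 1 of WT or replicate 2 of atm-2 rab8d-2 (up to 0.145).

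**Figure D2:**
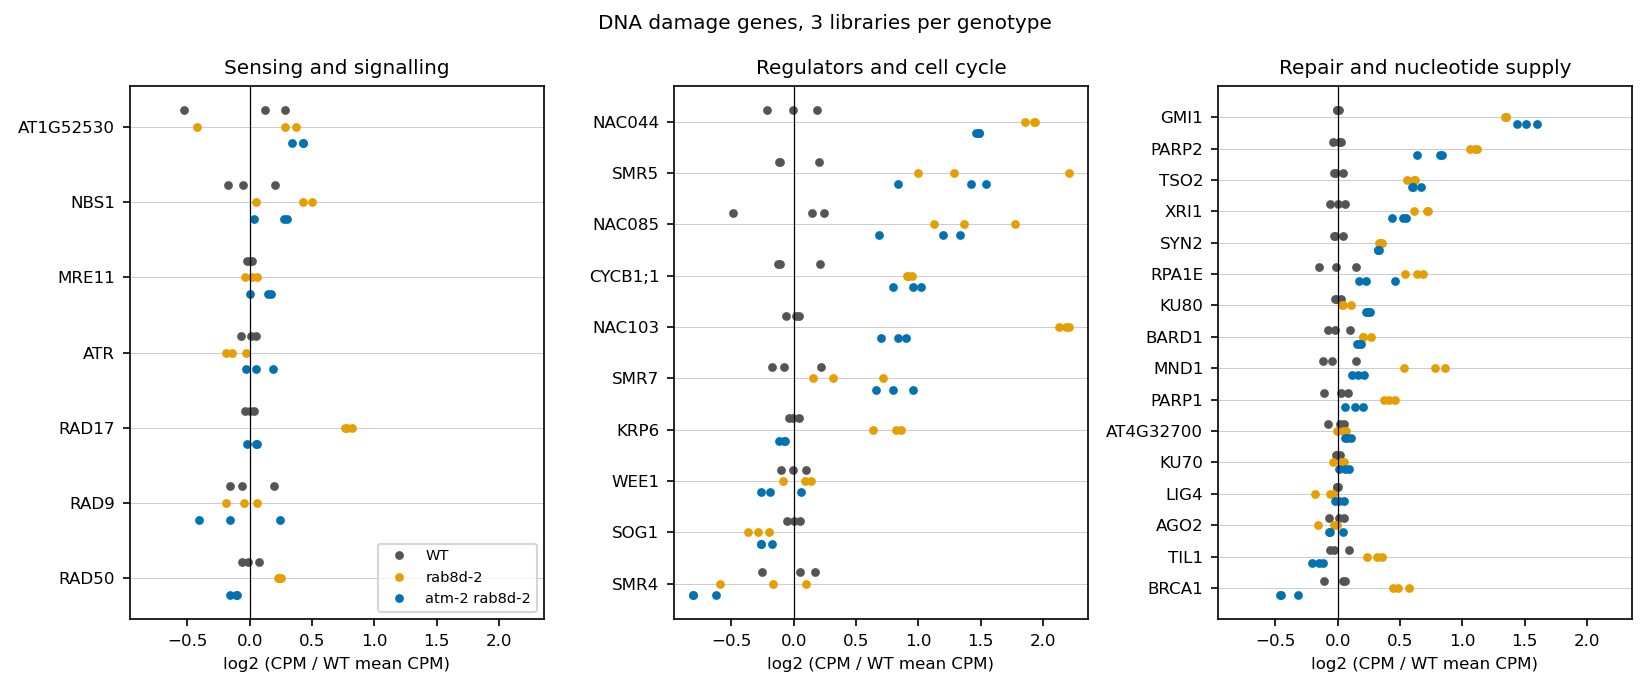
Level of 33 DNA damage genes in each library of WT, rab8d-2 and atm-2 rab8d-2, as the log2 ratio of its CPM to the mean CPM of WT (x axis), with 1 point per library and genes ordered by the double mutant (y axis). GMI1, CYCB1;1 and TSO2 lie about as high in the double mutant as in rab8d-2, whereas BRCA1, RAD17 and KRP6 lie near or below WT.

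Cell cycle genes were listed by phase. Of 28 genes of G2 and mitosis, 15 were lower and 2 higher than WT (median -0.23), whereas rab8d-2 had 8 higher and 4 lower. Against rab8d-2, 21 were lower in the double mutant and 1 higher. The cyclins CYCA2;2 (-0.90 ± 0.09) and CYCA2;1 (-0.65 ± 0.19), the kinase CDKB2;1 (-0.55 ± 0.05) and the activator of the anaphase-promoting complex CCS52B (-0.57 ± 0.06) fell most. CYCA2;2 had 11.9, 11.9 and 11.6 CPM in WT, 9.15, 7.64 and 8.20 in rab8d-2 and 6.42, 6.28 and 6.26 in the double mutant, without overlap. Other members that were lower included the spindle assembly factor TPX2 (-0.37 ± 0.07), the Aurora kinase AUR1 (-0.35 ± 0.07) and the cytokinesis syntaxin KNOLLE (-0.32 ± 0.05), and the 2 that were higher were CDC20.1 and CDC20.2, activators of the anaphase-promoting complex.

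Of 21 S phase genes, 10 were higher and 3 lower (median 0.08), against 14 and 0 in rab8d-2. The ribonucleotide reductase subunit RNR2A rose most, from 17.2, 17.5 and 16.2 CPM in WT to 29.3, 32.9 and 30.5 in the double mutant (0.86 ± 0.06). The licensing factors CDT1B (0.52 ± 0.11) and CDT1A (0.35 ± 0.06) rose as well, and ICU2, the catalytic subunit of polymerase alpha (-0.27 ± 0.05), and CDC6 (-0.24 ± 0.09) fell. Outside the damage response, 7 of 12 inhibitors of cyclin-dependent kinases were higher and 3 lower, and in rab8d-2 1 was higher and 4 lower. KRP2, which restrains cell cycle entry, had 17.3, 17.41 and 19.8 CPM in WT, 12.997, 12.6 and 12.5 in rab8d-2 and 30.9, 29.9 and 33.4 in the double mutant. It was thus below WT in the single and above WT in the double mutant (1.31 ± 0.06 between the mutants, adjusted p = 6.14e-23). SIM, which promotes endoreduplication, showed 0.57 ± 0.06, and KRP1 fell in both mutants (-1.06 ± 0.10, -1.06 in rab8d-2).

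Nuclear genes for plastid proteins made up the next group. Photosynthesis genes stayed low in atm-2 rab8d-2, but most lay above the level of the single mutant. Of 41 listed genes 34 were tested, with 25 lower and 2 higher than WT (median -0.95), against 29 lower in rab8d-2 (median -1.70). Between the mutants 19 were higher and 6 lower in atm-2 rab8d-2. The summed level of the list was 325 to 335 CPM in WT, 105 to 110 in rab8d-2 and 177 to 179 in atm-2 rab8d-2. It was 257 to 264 CPM in sog1-1 rab8d-2, 107 to 111 in nac044-1 rab8d-2 and 77.7 to 80.5 in nac085-1 rab8d-2. The morning clock list below summed to 433 to 439 CPM in atm-2 rab8d-2 and 425 to 438 in sog1-1 rab8d-2. Its sum was 194 to 207 CPM in WT, 152 to 160 in rab8d-2, 181 to 187 in nac044-1 rab8d-2 and 175 to 178 in nac085-1 rab8d-2. The hour of harvest is not in the labels, and its part here was not tested. In bulk RNA, fewer cells of a type and less RNA per cell cannot be told apart, here and for the tissue markers below.

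LHB1B2, a light-harvesting protein of photosystem II, had 28.9, 24.8 and 27.1 CPM in WT, 1.54, 1.595 and 1.25 in rab8d-2 and 16.7, 16.1 and 14.9 in the double mutant. It was 3.44 ± 0.12 above the single mutant on the log2 scale (adjusted p = 8.71e-29) and still -0.76 ± 0.07 against WT. PSBR, a subunit of photosystem II, had 40.8, 40.8 and 40.04 CPM in WT, 6.21, 6.48 and 6.42 in rab8d-2 and 14.99, 13.98 and 16.2 in the double mutant (-1.43 ± 0.05 against WT). The photosystem I antenna gene LHCA4 was close to WT (-0.26 ± 0.06), and LHCA1 (-0.24 ± 0.15), LHCB3 (-0.22 ± 0.13) and LHCB6 (0.08 ± 0.11) did not pass the test. No step up from rab8d-2 was called for some subunits, with PSAE1 of photosystem I at -2.18 ± 0.45 against WT and -2.19 in rab8d-2, and PSAN at -1.71 ± 0.16 and -1.54. PSBO2 (-1.80 ± 0.08, -1.13 in rab8d-2) and RBCS1A, the Rubisco small subunit (-1.61 ± 0.23, -0.57), were lower than in rab8d-2. The 2 genes called higher, LHCB2.1 and RBCS3B, were scarce. LHCB2.1 had 0, 0.101 and 0.0502 CPM in WT and 0.681, 1.17 and 1.26 in the double mutant, and RBCS3B had no counts in WT.

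Chlorophyll synthesis genes were mostly lower, with 11 of 18 genes lower and 4 higher than WT (median -0.22). CHLH, the porphyrin-binding subunit of magnesium chelatase, had 36.5, 34.2 and 38.1 CPM in WT, 8.47, 7.44 and 7.76 in rab8d-2 and 17.1, 17.9 and 17.9 in the double mutant. CRD1, a cyclase subunit, had 12.3, 11.5 and 11.1 CPM in WT, 0.818, 1.74 and 1.05 in rab8d-2 and 2.97, 3.75 and 4.12 in the double mutant. Both thus lay between the single mutant and WT without overlap. HEMA1, the glutamyl-tRNA reductase that starts the pathway, went further down, from 218, 230.3 and 225 CPM in WT and 140.3, 143 and 140.3 in rab8d-2 to 56.0, 55.3 and 58.2 in the double mutant (-1.99 ± 0.03 against WT, -1.32 ± 0.03 against rab8d-2). Its paralog HEMA2 fell too (-1.31 ± 0.03, and -0.14 in rab8d-2). Low HEMA1 was shared with nac085-1 rab8d-2, whose mean was 63.8 CPM, against 165 in sog1-1 rab8d-2.

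Some factors that control plastid genes reached WT levels or more in atm-2 rab8d-2. GLK2, a transcription factor that activates photosynthesis genes, had 13.6, 11.8 and 11.8 CPM in WT, 2.79, 2.22 and 2.49 in rab8d-2 and 14.1, 12.8 and 13.001 in atm-2 rab8d-2. The double mutant overlapped WT (0.10 ± 0.08, adjusted p = 0.278) and was 2.41 ± 0.11 above rab8d-2 (adjusted p = 2.16e-24). GUN1, a plastid protein of retrograde signalling, had 154, 163 and 159 CPM in WT, 108, 109 and 109.8 in rab8d-2 and 155, 157 and 155 in the double mutant, which again overlapped WT (-0.03 ± 0.03). SIG5, a sigma factor of the plastid RNA polymerase that responds to light and stress, had 23.1, 26.0 and 24.9 CPM in WT, 16.4, 14.3 and 13.9 in rab8d-2 and 52.2, 44.9 and 52.4 in the double mutant. It was below WT in one mutant and above it in the other (1.75 ± 0.07 between them). Whether the hour of harvest had a part in the values of these regulators was not tested. Of the 10 regulators tested, 5 were lower than WT and 1 higher, among them SIG6 (-0.81 ± 0.12) and SIG2 (-0.38 ± 0.08), which stayed low.

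Many plastid translation genes were lower in the double mutant than in either other genotype. Of 33 genes 27 were lower and 0 higher than WT (median -0.42), and 19 were lower than in rab8d-2, whose median was -0.24. The initiation factor gene FUG1 had 37.4, 38.05 and 34.2 CPM in WT, 17.96, 20.98 and 19.4 in rab8d-2 and 18.3, 16.8 and 19.02 in the double mutant. SCO1, the plastid elongation factor G, had 44.8, 45.4 and 44.9 CPM in WT, 23.9, 23.2 and 25.5 in rab8d-2 and 23.2, 22.4 and 23.4 in the double mutant. The mutants overlapped for both factors. The ribosomal protein genes RPS9 (-0.83 ± 0.10, -0.27 in rab8d-2), PRPL1 (-0.78 ± 0.06, -0.33) and RPL9 (-0.56 ± 0.09, 0.01) carried the further decrease. Of 22 plastid chaperones and proteases, 16 were lower and 2 higher. The chaperonins CPN60A (-0.47 ± 0.03) and Cpn60beta2 (-0.48 ± 0.04) and the plastid Hsp90 gene CR88 (-0.40 ± 0.03) fell, while in rab8d-2 they were at 0.00, 0.13 and 0.01. The thylakoid protease FTSH1 showed the reverse (-0.36 ± 0.05, -0.97 in rab8d-2), and CLPB3, the plastid unfoldase, rose (0.35 ± 0.05). Of 68 genes of the plastid genome 6 passed the filter, in RNA selected for poly(A) tails, and 4 of them were higher than WT. They passed through the mutant libraries in which they were high, so their median of 1.95 describes these 6 only. The call of ATCG00670 was lost without replicate 1 of atm-2 rab8d-2 (adjusted p = 0.106), and ATCG01130 gained one without replicate 2 or 3 of WT (adjusted p = 0.0404 and 0.0407).

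**Figure D3:**
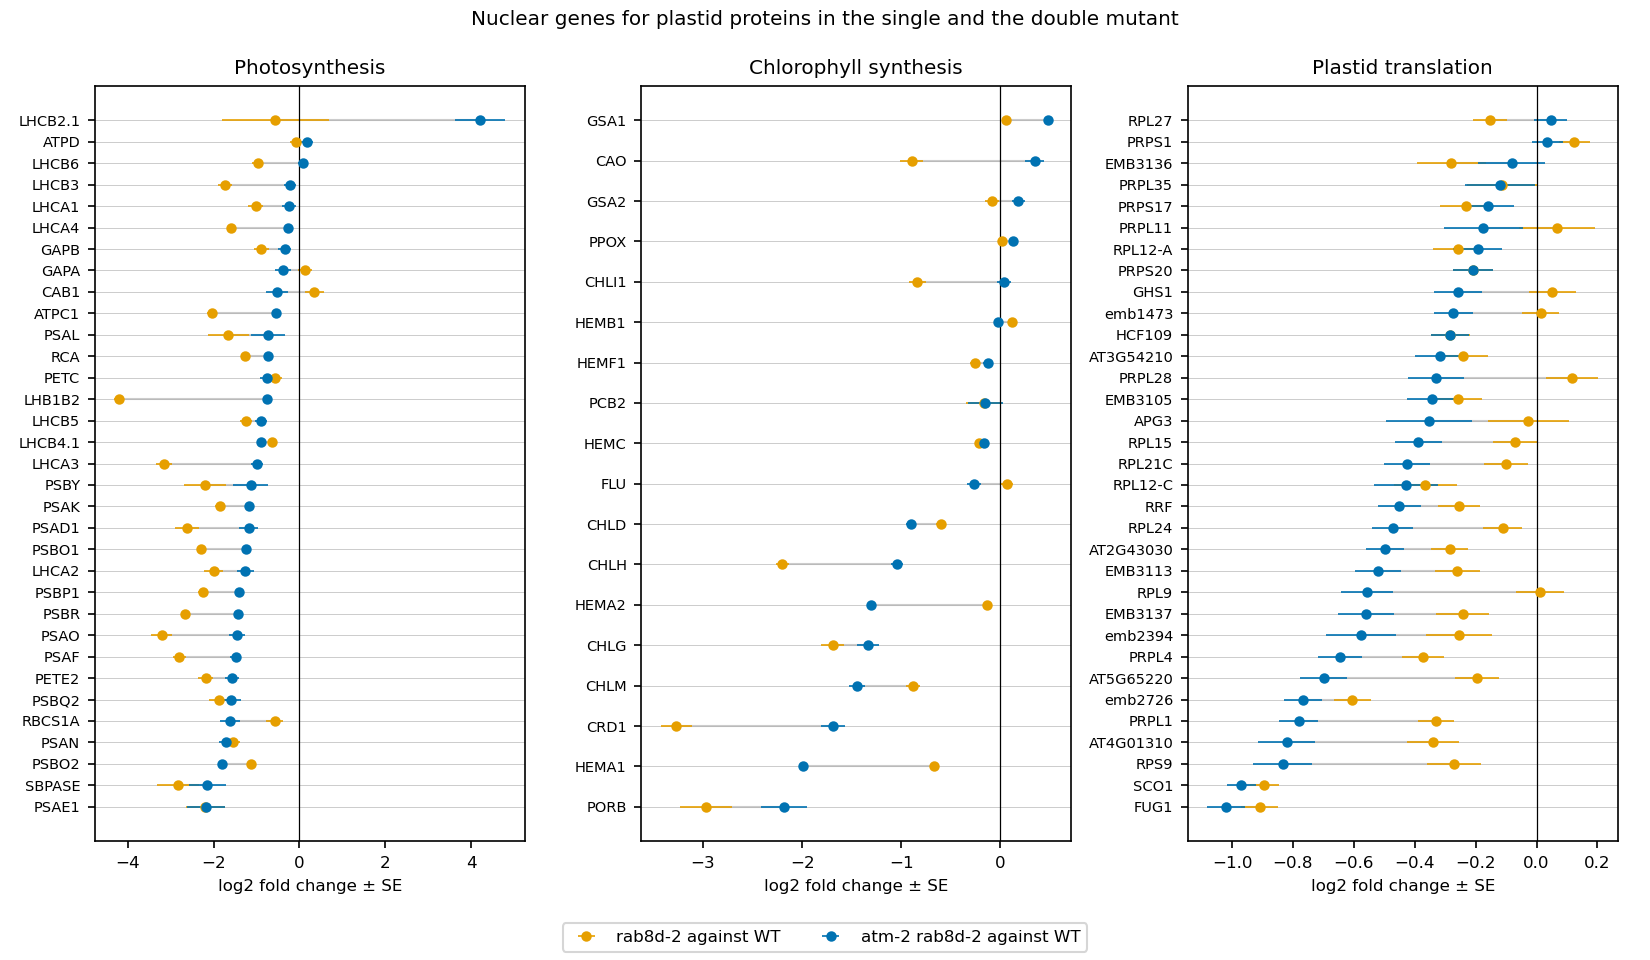
Log2 fold change against WT (x axis, bars are the SE) of the tested nuclear genes for photosynthesis, chlorophyll synthesis and plastid translation (y axis), in rab8d-2 (orange) and atm-2 rab8d-2 (blue), with RBCS3B not drawn because it had no counts in WT. LHB1B2 moves from -4.20 to -0.76 and CHLH from -2.20 to -1.04, while most translation genes are lower in the double mutant.

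More mitochondrial stress genes were lower than higher in the double mutant when set against rab8d-2, while some kept their rise over WT. Of 19 genes tested, 12 were higher and 4 lower (median 0.18), against 14 and 3 in rab8d-2 (median 0.80). Compared directly, 10 of the 19 were lower in atm-2 rab8d-2 than in rab8d-2 and 4 higher. The summed level of the list was 949 to 989 CPM in WT, 1050 to 1077 in rab8d-2 and 679 to 682 in atm-2 rab8d-2, where DIC2 and OM66 were low. NDB4, an alternative NADH dehydrogenase, had 0.550, 0.705 and 0.452 CPM in WT, 7.85, 6.53 and 6.61 in rab8d-2 and 6.91, 7.31 and 6.55 in the double mutant, a rise of 3.59 ± 0.18. NAC13, a NAC factor that carries mitochondrial signals to the nucleus, had 22.6, 23.0 and 23.0 CPM in WT, 40.7, 41.1 and 40.98 in rab8d-2 and 38.7, 41.1 and 43.3 in the double mutant. The mutants overlapped for both genes. The alternative oxidase AOX1C (1.75 ± 0.19) and the dehydrogenase NDA1 (1.99 ± 0.29) were also above WT, and the import subunit TIM17-1 was above WT (1.75 ± 0.34) but lower than in rab8d-2 (2.65). The dicarboxylate carrier DIC2 fell instead, from 317, 329 and 306 CPM in WT and 205, 215 and 211 in rab8d-2 to 21.2, 24.6 and 20.8 (-3.84 ± 0.04), and OM66 of the outer membrane fell too (-2.07 ± 0.04, 0.38 in rab8d-2). In nac085-1 rab8d-2 the mean of DIC2 was 18.9 CPM and that of OM66 26.7 CPM, against 129 CPM of OM66 in WT.

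Other stress pathways changed in part. Of 14 cytosolic heat shock genes 8 were lower and 3 higher (median -0.90), against 9 lower and 1 higher in rab8d-2 (median -0.51). The decreases were led by HSP90-1 with 113, 108 and 107 CPM in WT, 86.3, 81.3 and 79.8 in rab8d-2 and 30.8, 30.4 and 33.2 in the double mutant. Of 14 genes of the unfolded protein response 6 were higher and 2 lower than WT, the share of higher genes being near the 35.1% of all genes, whereas in rab8d-2 12 were higher and 0 lower. Between the mutants 9 of the 14 were lower in the double mutant and 3 higher. BZIP60, a transcription factor of this pathway, was at -0.44 ± 0.04 against 0.34 in rab8d-2. Of 13 oxidative stress genes 3 were higher and 6 lower, with the NADPH oxidase RBOHD at -1.97 ± 0.04 and the glutathione transferase GSTF7 at 0.60 ± 0.03. The 5 tested salicylate defence genes were all lower, most of all the transcription factor WRKY70 with 22.1, 20.5 and 21.7 CPM in WT, 3.95, 4.69 and 5.03 in rab8d-2 and 0.778, 0.779 and 1.02 in the double mutant (-4.63 ± 0.13). Summed over the list, the level was 215 to 218 CPM in WT, 200 to 205 in rab8d-2 and 97.6 to 107 in atm-2 rab8d-2. It was 112 to 117 CPM in nac085-1 rab8d-2, 175 to 178 in sog1-1 rab8d-2 and 214 to 222 in nac044-1 rab8d-2. The part of handling and time of harvest was not tested.

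Among root tissues, phloem markers lay near their level in rab8d-2, xylem markers between rab8d-2 and WT, and endodermis and root hair markers closer to WT. Of 14 phloem markers 9 were lower and 1 higher (median -0.41, and -0.49 in rab8d-2). SWEET11, a sucrose exporter of the phloem, had 53.6, 48.1 and 51.3 CPM in WT, 1.16, 2.08 and 1.39 in rab8d-2 and 1.56, 2.05 and 1.65 in the double mutant (-4.86 ± 0.10 against WT; 0.18 ± 0.22 against rab8d-2, adjusted p = 0.483). The sucrose transporter SUC2 had 34.1, 36.3 and 36.5 CPM in WT, 16.8, 16.05 and 18.5 in rab8d-2 and 18.3, 20.07 and 16.4 in the double mutant. The mutants overlapped in both transporters and in the sieve element gene SEOR2 (-1.45 ± 0.06). OPS, which promotes protophloem differentiation, was higher in both (0.87 ± 0.06, 0.83 in rab8d-2).

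Of 17 xylem markers 14 were lower and 1 higher (median -0.53, and -0.93 in rab8d-2), and 10 were above rab8d-2. LAC4, a laccase of lignin formation, had 84.1, 80.1 and 87.7 CPM in WT, 43.998, 43.6 and 44.6 in rab8d-2 and 42.2, 41.8 and 40.1 in the double mutant. CESA7, a cellulose synthase of the secondary wall, had 68.7, 70.7 and 71.8 CPM in WT, 35.1, 34.7 and 33.9 in rab8d-2 and 48.8, 43.8 and 46.3 in the double mutant. LAC4 did not pass the test between the mutants (-0.09 ± 0.05, adjusted p = 0.106), and CESA7 lay between rab8d-2 and WT. The summed level of the xylem list was 815 to 845 CPM in WT, 451 to 452 in rab8d-2 and 538 to 543 in atm-2 rab8d-2.

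Of 10 endodermis markers 6 were lower and 3 higher than WT (median -0.11), while all 10 were lower in rab8d-2 (median -0.63). CASP1, which builds the Casparian strip, had 80.4, 76.6 and 65.5 CPM in WT, 61.9, 51.2 and 52.5 in rab8d-2 and 73.8, 91.2 and 69.7 in the double mutant, which overlapped WT. The kinase gene AT1G61590 had 106, 103 and 107 CPM in WT, 39.5, 40.7 and 43.5 in rab8d-2 and 101, 96.9 and 99.4 in the double mutant. CASP5 was an exception and stayed low (-0.75 ± 0.06, -0.72 in rab8d-2). Of 18 suberin genes 16 were above rab8d-2 and 0 below, and against WT 9 were lower and 5 higher. ABCG6, a transporter for suberin, had 114, 113 and 111 CPM in WT, 26.3, 27.8 and 26.7 in rab8d-2 and 54.3, 57.3 and 49.9 in the double mutant. ASFT, a feruloyl transferase of suberin, had 199, 203 and 209 CPM in WT, 137, 135 and 136 in rab8d-2 and 334, 335 and 321 in the double mutant, so that it passed WT (0.70 ± 0.03), as did the regulator MYB41 (0.87 ± 0.11, -0.98 in rab8d-2).

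Of 11 root hair markers 4 were lower and 1 higher than WT, against 10 lower in rab8d-2. The expansin EXPA7 had 45.9, 50.2 and 45.9 CPM in WT, 31.0, 31.0 and 32.1 in rab8d-2 and 42.3, 51.9 and 42.0 in the double mutant, which overlapped WT. Of 5 root cap markers 3 were higher, including the differentiation factor SMB (0.80 ± 0.11). Meristem and regeneration genes rose, with 11 of 17 higher and 2 lower than WT (median 0.57), against 13 and 2 in rab8d-2 (median 0.40). Between the mutants 6 were higher and 4 lower in the double mutant (median -0.04). WOX5, the regulator of the quiescent centre, had 1.40, 1.21 and 1.003 CPM in WT, 5.20, 4.64 and 5.22 in rab8d-2 and 15.9, 15.4 and 16.7 in the double mutant, the one member higher by more than 1 log2 unit than in rab8d-2 (1.67 ± 0.09). Its mean was 16.8 CPM in nac085-1 rab8d-2 and 5.11 in sog1-1 rab8d-2. ERF115, which replaces damaged stem cells, had 0.550, 0.503 and 0.552 CPM in WT, 2.94, 2.37 and 2.73 in rab8d-2 and 1.51, 1.51 and 1.26 in the double mutant. AT5G61890 had 0.650, 0.554 and 0.753 CPM in WT, 9.92, 7.64 and 8.68 in rab8d-2 and 2.19, 1.997 and 2.72 in the double mutant. Both genes thus kept only part of their rise, while the stem cell factors PLT2 (1.16 ± 0.11) and BBM (0.91 ± 0.10) stayed close to rab8d-2 (0.98 and 1.26).

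**Figure D4:**
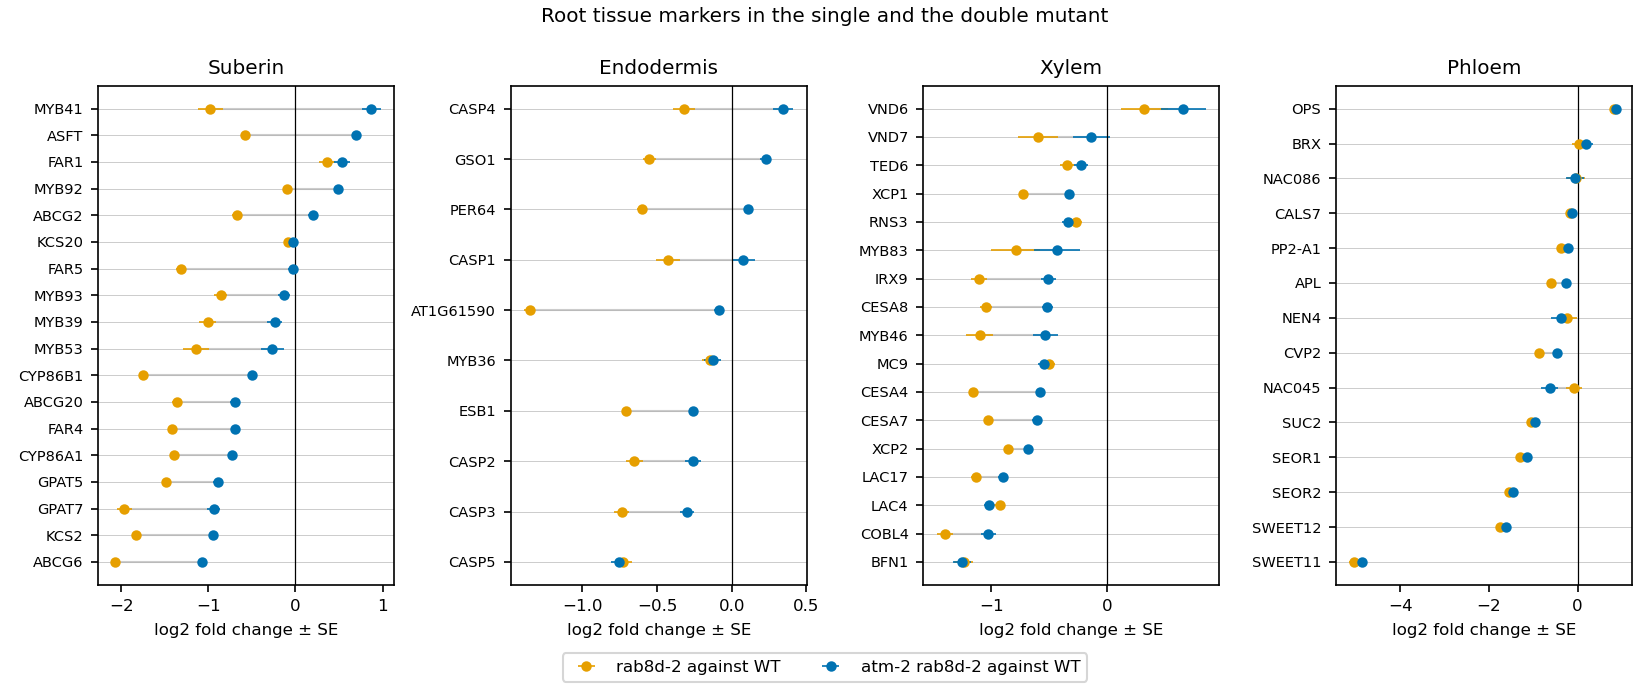
Log2 fold change against WT (x axis, bars are the SE) of markers of suberin, endodermis, xylem and phloem (y axis) in rab8d-2 (orange) and atm-2 rab8d-2 (blue). Most phloem points of the 2 mutants lie close together, as for SWEET11 at -5.04 and -4.86, while most suberin and endodermis points of the double mutant lie to the right of the single mutant, as for ABCG6 at -2.07 and -1.07.

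Many of the steepest changes came from other pathways. Genes were ranked by log2 fold change among changed genes whose log2 CPM averaged 1 or more over the 6 libraries and whose libraries did not overlap. Among the 15 with the largest decrease were the transcription factors DDF1 (-7.09 ± 0.07), RRTF1 (-6.50 ± 0.05), ORA47 (-6.27 ± 0.09) and WRKY40 (-5.93 ± 0.05), the jasmonate repressors JAZ7 (-5.52 ± 0.08) and JAZ8 (-5.07 ± 0.13), and the lipoxygenases LOX3 (-5.03 ± 0.09) and LOX4 (-5.50 ± 0.09). ERF11 (-5.12 ± 0.08), NAC3 (-5.05 ± 0.13), MRD1 (-5.70 ± 0.11), the calmodulin-like gene AT1G76640 (-5.32 ± 0.10), AT3G44870 (-5.85 ± 0.12), AT2G25460 (-5.26 ± 0.04) and AT3G01830 (-5.00 ± 0.09) completed the set. The 15 largest increases were led by the ribonuclease RNS1 (7.82 ± 0.13), the dehydration gene RD29A (4.90 ± 0.03), the galactinol synthase GOLS3 (4.78 ± 0.10), the aquaporin PIP2;5 (4.71 ± 0.13) and the transaminase BCAT4 (4.47 ± 0.10). They were followed by PRN, a pirin (4.37 ± 0.03), the lipid transfer gene LTP5 (4.35 ± 0.12), RSH2 (4.28 ± 0.04), STH (4.25 ± 0.11), the sugar transporter PMT6 (4.14 ± 0.06), LHY (4.095 ± 0.16), AT1G48100 (4.06 ± 0.19), AT5G01870 (4.02 ± 0.06), KIN2 (4.01 ± 0.05) and the glycine-rich protein gene GRP5 (4.00 ± 0.19). LTP5 had 30.8, 34.6 and 34.1 CPM in rab8d-2 and 27.8, 26.5 and 27.7 in the double mutant, so its rise was present in both, as were those of AT5G01870 (4.36 in rab8d-2) and GRP5 (4.72). RNS1 had 0.200, 0.101 and 0.452 CPM in WT, 2.70, 2.03 and 2.49 in rab8d-2 and 58.6, 54.7 and 61.1 in the double mutant. Low DDF1 and high RNS1 were shared with nac085-1 rab8d-2, with means of 3.14 and 44.1 CPM. MRD1 and LHY, with means of 26.9 and 0.686 CPM there, lay closer to WT than to atm-2 rab8d-2. Low MRD1 was shared with sog1-1 rab8d-2, with means of 0.355 CPM there and 0.697 in atm-2 rab8d-2. Its mean was 6.59 CPM in rab8d-2 and 36.6 in WT.

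The touch, jasmonate, cold and clock lists described next were drawn up because earlier results of these data had shown such genes to move, so their counts are a description. Of 19 touch and wounding genes 18 were lower and 1 was higher (median -2.88), and 17 were below rab8d-2. In rab8d-2 15 were lower and 3 higher than WT (median -0.53). WRKY40, a transcription factor induced by wounding, had 338, 331 and 328 CPM in WT, 234, 228 and 227 in rab8d-2 and 5.30, 5.45 and 5.58 in the double mutant. TCH4, a touch-induced cell wall enzyme, had 172, 169 and 166 CPM in WT, 204, 199 and 199.6 in rab8d-2 and 18.1, 18.1 and 18.4 in the double mutant. Jasmonate genes were mostly lower, with 19 of 23 lower and 2 higher than WT (median -2.25), against 11 higher and 8 lower in rab8d-2. The repressor JAZ10 had 97.7, 85.1 and 88.8 CPM in WT, 111, 109 and 108 in rab8d-2 and 5.79, 5.36 and 5.24 in the double mutant. MYC2, the central transcription factor of jasmonate signalling, had 551, 540.5 and 551 CPM in WT, 499, 510.4 and 501 in rab8d-2 and 137, 135 and 136 in the double mutant.

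Cold and dehydration genes went up, with 10 of 13 tested and 10 of the 10 higher (median 2.19). RD29A had 48.5, 49.3 and 47.3 CPM in WT, 129, 126 and 126 in rab8d-2 and 1379, 1489 and 1465 in the double mutant. KIN2, a small protein of the cold response, had 12.996, 12.4 and 12.9 CPM in WT, 11.8, 12.2 and 13.8 in rab8d-2 and 207, 201 and 209.5 in the double mutant. In nac085-1 rab8d-2 the mean of WRKY40 was 7.07 CPM, against 167 in sog1-1 rab8d-2 and 209.9 in nac044-1 rab8d-2. JAZ10 had means of 13.3, 124 and 121 CPM in the same 3 genotypes, and RD29A 1294, 381 and 303. For these 3 genes atm-2 rab8d-2 and nac085-1 rab8d-2 thus stood together and apart from the other 2 double mutants. Handling and time of harvest are not given in the labels, and their part in these values was not tested.

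Of 12 genes listed as morning clock genes 11 were higher and 1 lower (median 2.19), while rab8d-2 had 1 higher and 7 lower. LHY, a core repressor of the morning, had 0.550, 0.755 and 0.753 CPM in WT, 0.866, 0.628 and 0.815 in rab8d-2 and 12.99, 11.2 and 11.3 in the double mutant. Its partner CCA1 had 1.1997, 0.856 and 1.204 CPM in WT, 0.674, 0.338 and 0.959 in rab8d-2 and 15.2, 14.95 and 15.04 in the double mutant. Of 11 genes listed as evening clock genes 9 were lower and 1 higher (median -0.89), against 7 lower and 2 higher in rab8d-2 (median -0.18). ELF4, of the evening complex, had 183, 187 and 164 CPM in WT, 136, 121 and 123 in rab8d-2 and 29.1, 30.8 and 28.1 in the double mutant. TOC1, an evening repressor, had 222, 227 and 226 CPM in WT, 204, 193 and 202 in rab8d-2 and 69.9, 72.3 and 77.1 in the double mutant, and GI did not pass the test (-0.04 ± 0.03). Here sog1-1 rab8d-2 was the genotype alongside, with means of 13.8 CPM for LHY and 27.3 for ELF4, against 0.686 and 141 in nac085-1 rab8d-2. The hour of harvest of each genotype is not in the labels, and its part in the clock values was not tested.

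**Figure D5:**
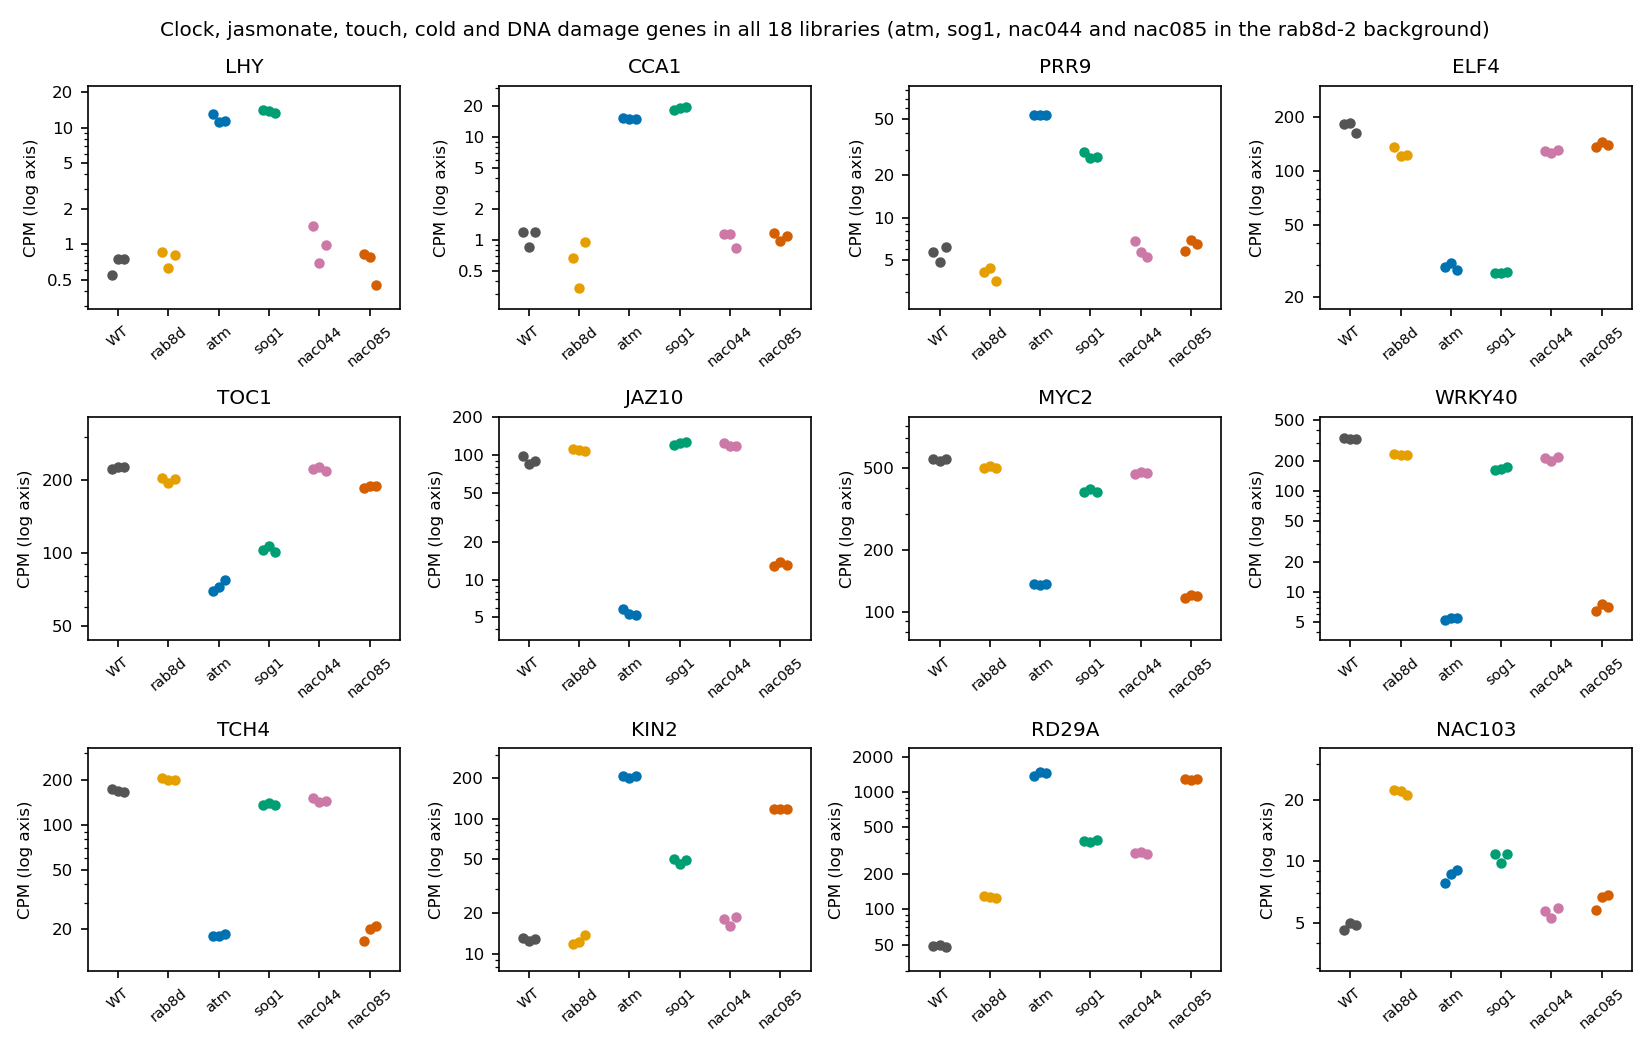
CPM on log axes (y axis) of 12 genes of the clock, jasmonate, touch, cold and DNA damage lists in all 18 libraries, with 1 point per library by genotype (x axis, atm, sog1, nac044 and nac085 stand for the double mutants with rab8d-2). LHY, CCA1 and PRR9 are high in the atm-2 and sog1-1 double mutants, JAZ10, MYC2, WRKY40 and TCH4 are low in the atm-2 and nac085-1 double mutants, and NAC103 is highest in rab8d-2.

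Hormone lists came next. Of 12 cytokinin response genes 9 were higher and 0 lower (median 0.68). CKX4, a cytokinin oxidase, had 4.099, 5.08 and 4.42 CPM in WT, 1.2997, 1.69 and 1.87 in rab8d-2 and 24.7, 24.3 and 24.7 in the double mutant. The response regulator ARR4 had 73.98, 87.7 and 89.2 CPM in WT, 78.9, 80.97 and 76.2 in rab8d-2 and 166, 176 and 168 in the double mutant. Both were above WT and rab8d-2 without overlap. Summed over the list, the level was 380 to 401 CPM in WT and 621 to 633 in atm-2 rab8d-2. It was 634 to 644 CPM in nac085-1 rab8d-2, 511 to 516 in sog1-1 rab8d-2 and 326 to 332 in nac044-1 rab8d-2. Of 20 auxin genes 8 were higher and 7 lower, near the shares of all genes (35.1% and 33.5%). GH3.3, which conjugates auxin, stayed high as in rab8d-2 (2.90 ± 0.20, 3.503). Of 11 abscisic acid genes 3 were higher and 4 lower, against 1 higher and 9 lower in rab8d-2. NCED3, the rate-limiting enzyme of abscisic acid synthesis, was low in both mutants (-3.03 ± 0.10, -2.74 in rab8d-2).

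Of 15 nitrate genes 11 were higher and 3 lower (median 0.56), and 14 were above rab8d-2 and 0 below. Summed over the list, the level was 1922 to 1968 CPM in WT and 2258.5 to 2308 in atm-2 rab8d-2. It was 2337 to 2358 CPM in nac085-1 rab8d-2, 1729 to 1758 in sog1-1 rab8d-2 and 1418 to 1429 in nac044-1 rab8d-2. NRT1.1, the dual-affinity nitrate transporter and sensor, had 412, 416 and 416 CPM in WT, 248, 261 and 248 in rab8d-2 and 595, 584 and 579 in the double mutant, whereas the nitrate reductases NIA1 (-0.84 ± 0.03) and NIA2 (-0.84 ± 0.03) stayed low. Among 13 phosphate genes 5 were higher and 6 lower, the share of higher genes being near the 35.1% of all genes. SPX1, a phosphate sensor, was at 1.64 ± 0.06 and PHO1, the exporter to the xylem, at -0.54 ± 0.03. Of 13 sulfur genes 7 were higher and 4 lower, with the glucosidase BGLU28 at 2.72 ± 0.49 and the sulfate transporter SULTR1;1 at -1.80 ± 0.21. Of 13 iron genes 3 were higher and 6 lower, the same counts as in rab8d-2. The nicotianamine synthase NAS2 was at 3.27 ± 0.16 and the iron transporter IRT1 at -0.88 ± 0.21, a gene that was above WT in rab8d-2 (0.85). Of 13 hypoxia genes 3 were higher and 6 lower, against 4 and 6 in rab8d-2. ADH1, alcohol dehydrogenase, did not pass the test (-0.10 ± 0.09) although it was low in rab8d-2 (-1.99).

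Genes of secondary metabolism changed in both directions. Among 17 glucosinolate genes 8 were higher and 8 lower. BCAT4, which starts the elongation of methionine, had 1.1997, 1.91 and 1.56 CPM in WT, 21.9, 21.9 and 23.0 in rab8d-2 and 34.3, 35.02 and 34.5 in the double mutant. MAM1, the synthase of the chain extension, had 1.90, 1.81 and 2.01 CPM in WT, 11.3, 11.3 and 12.4 in rab8d-2 and 15.6, 18.22 and 15.4 in the double mutant. MYB28, a regulator of aliphatic glucosinolates, had 7.95, 6.95 and 6.77 CPM in WT, 22.6, 19.9 and 18.5 in rab8d-2 and 34.3, 34.8 and 32.8 in the double mutant. All 3 rose in the order WT, rab8d-2, double mutant without overlap, as did CYP83A1 (3.29 ± 0.08, 2.60 in rab8d-2) and MAM3 (2.64 ± 0.04, 1.87). Among genes of indolic glucosinolates, also picked as examples, the regulator MYB51 fell (-2.82 ± 0.05), CYP81F2 fell (-0.89 ± 0.09) and MYB122 rose (2.14 ± 0.09). Of 10 flavonoid genes 9 were above rab8d-2, and chalcone synthase CHS was closer to WT (-0.41 ± 0.02) than in rab8d-2 (-0.74). Of 21 aquaporins 16 were lower and 4 higher than WT (median -0.40), against 18 lower and 3 higher in rab8d-2 (median -0.88). Between the mutants 16 were higher and 2 lower in the double mutant. TIP2;3 of the vacuolar membrane had 247, 236 and 232 CPM in WT, 46.5, 49.98 and 48.6 in rab8d-2 and 55.2, 53.2 and 56.4 in the double mutant, while PIP2;5 of the plasma membrane had 0.7998, 0.856 and 0.702 CPM in WT, 10.2, 8.65 and 9.20 in rab8d-2 and 22.1, 21.1 and 19.02 in the double mutant.

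Finally, 5 genes had no counts in any atm-2 rab8d-2 library and at least 30 counts over the WT libraries, and 10 genes showed the reverse. AT3G45260, annotated as a C2H2-like zinc finger protein, had 5.35, 4.48 and 5.57 CPM in WT and 4.19, 4.64 and 3.98 in rab8d-2 and no counts in the double mutant. Taken against a floor of 3 counts over the 3 libraries, it was at least 106-fold lower than in WT, and it lies 422 genes from ATM on chromosome 3. Its mean was 5.47, 6.19 and 8.89 CPM in the sog1-1, nac044-1 and nac085-1 double mutants. The others without counts in the double mutant were AT1G33760, AAE12, GLR2.3 and CPL3, with 30 to 45 counts over the WT libraries.

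Of the 10 genes without counts in WT, AT1G66920 had 4.04, 4.68 and 4.46 CPM in the double mutant and 0.144, 0.242 and 0.527 in rab8d-2, at least 87.6-fold above WT on the same floor. AT2G03965 had 1.80, 1.46 and 1.99 CPM in the double mutant, at least 34.9-fold above WT, with 1 count in rab8d-2 and none in the other 3 double mutants. AT1G25055 reached 520 counts, but its libraries had 0, 3.46 and 21.8 CPM, so that 1 library overlapped WT, and how reads were shared with similar genes is not known. COR15A, a cold-induced plastid protein, had 36 counts in the double mutant. The others were AT1G30160, AT1G55650, CSY5, AT4G12500, AT4G20970 and AT5G11410, with 45 to 106 counts in the double mutant. AT1G30160, AT1G55650 and CSY5 had 76, 42 and 86 counts in rab8d-2, so their rise was present in both mutants. AT4G20970, with 1 count in rab8d-2, lies 80 genes from RAB8D on chromosome 4. These floors cover counting error only.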

How the data were processed

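The authors deposited estimated counts per gene and library, made with RSEM 1.3.1 per the submitters' processing notes, beside TPM and FPKM values that were not used here. The aligner, genome build and strand are not given in the sources used here. For that reason no coordinates or sequences are printed and promoters were not analysed here. Counts were rounded to whole numbers (1.56% to 1.75% of them carried decimals per library). Library totals were 20103600 to 20471200, and floors set from 3 counts cover counting error only.

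edgeR 4.0.16 in R 4.3.3 was run with TMM scaling (factors 0.970 to 1.02), its own filter on low counts and the quasi-likelihood test, fitted over all 18 libraries with a mean for each genotype. Adjusted p-values in the text are from this test, by Benjamini-Hochberg within each comparison at a threshold of 0.05. The SE is the size of the log2 fold change divided by the square root of F. CPM values are relative to library size after TMM scaling. The script was tested on simulated data with a larger dispersion and far fewer changed genes than here. That test checked the code and not the error rates in these data. No set test was run.

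The 42 gene lists and the comparison were chosen with earlier results of these data known. Of 658 listed loci 654 are in the table and 606 were tested. Names and neighbourhood of genes came from a RefSeq annotation (TAIR10.1) that matched 25462 of 25537 loci. Genes named are the mutated genes, all DNA damage genes but 1 that is counted in its list and not reported here, the 15 highest and 15 lowest genes, up to 5 members per list with the smallest p, and genes at 0. Other list members were named as examples after their values were seen. Alternatives were other scalings (RLE, upper quartile), filters, DESeq2 1.42.0, the 6 libraries alone, a replicate block, a test against a fold of 1.2 and leaving out each library.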

Additional observations from a re-analysis of the deposited data

How the results depend on the processing

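No called difference among the genes chosen by the naming rule changed sign in any alternative, and differences that had not passed the test and lay near 0, such as those of RAD9, AGO2 and LIG4 from WT, did in some. Tested against a fold of 1.2 in place of 0, the count of changed genes between atm-2 rab8d-2 and WT was 7504 (3454 higher, 4050 lower), and between atm-2 rab8d-2 and rab8d-2 3062 were higher and 2904 lower, so that many calls rest on changes smaller than that fold. Leaving out 1 library gave 13061 to 13104 changed genes against WT (6559 to 6732 higher, 6364 to 6516 lower), with 1074 to 1117 at least 2-fold higher and 1480 to 1547 at least 2-fold lower, and 5750 to 5981 higher and 5580 to 5815 lower against rab8d-2. Under upper quartile scaling 59.3% of the changed genes were higher in place of 51.1%, and the median log2 fold change of all genes was 0.075. That scaling turned the sign of the medians of the flavonoid, glucosinolate and oxidative stress lists, which lie near 0. DESeq2 called 12451 genes changed (6111 higher, 6340 lower). Of 261 genes chosen by that rule, 224 kept their call, or lack of one, against WT in every alternative that tested them. Against rab8d-2 206 of 261 did. Direction was compared only where a gene was called, and the stricter filter kept 247 of the 261 genes.

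Replicate numbers are shared by the genotypes in the labels, which give no pairing of the libraries. Same-numbered libraries of atm-2 rab8d-2 and WT deviated together with correlations of -0.0081, 0.048 and 0.0906. Correlations between differently numbered libraries ran from -0.116 to 0.073. From 3 libraries per genotype these values cannot decide on pairing. With the replicate number as a block 13706 genes were changed against WT (7017 higher, 6689 lower), and 6323 were higher and 5974 lower against rab8d-2. The search of promoters for motifs was not run. Depth limits the scarce genes most, among them SMR5, NAC085 and the plastid genes, and the spread rests on 3 libraries per genotype.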
